A study of Mus musculus with 17 samples.

Results

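The genes described here are those of the proteasome, taken from a table of normalized read counts as every row whose symbol starts with Psma, Psmb, Psmc, Psmd, Psme, Psmf or Psmg. There were 49 such genes among 13501 in the table. They comprise 5 immunoproteasome genes (Psmb8, Psmb9, Psmb10, Psme1 and Psme2), 41 constitutive subunits, regulators and assembly chaperones, and 3 others that the prefixes take in (Psma8, Psmc3ip and Psme2b). All 49 passed the filter on low values, as did 12074 genes of the table.

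The counts come from bulk RNA sequencing of living (DAPI-negative) CD45+CD11b+ cells sorted from mouse brain. Circulation-derived myeloid cells were sorted from Trem2-knockout 5xFAD mice that had received bone marrow and the microglia-depleting CSF1R inhibitor PLX5622. Their donors were Trem2-knockout (KO transplant, 4 libraries, S32 to S35) or Trem2-wildtype (WT transplant, 4 libraries, S28 to S31). Resident microglia came from untreated 5xFAD mice that were Trem2-knockout (KO microglia, 3 libraries, S25 to S27) or Trem2-wildtype (WT microglia, 3 libraries, S22 to S24), and from untreated wild-type mice without 5xFAD (normal microglia, 3 libraries, S20, S21 and S36). The 5xFAD transgenes make neurons produce mutant human amyloid precursor protein and presenilin, and Trem2 is a lipid-sensing receptor of myeloid cells. All transplanted cells lay in a knockout 5xFAD host, and only those mice had been treated, so cell origin and treatment cannot be told apart. In WT transplant against WT microglia the Trem2 genotype of the mouse around the cells differs as well. The labels state neither ages nor whether a library is 1 animal or a pool, so p-values measure only the spread between these libraries.

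Depth was 16044078 to 30606394 reads per library (median 19254498). Trem2 followed the labels, at 4499 ± 601 in KO transplant and 45490 ± 8857 in WT transplant (SD, n = 4 each), and at 5282 ± 824 in KO microglia and 51270 ± 1868 in WT microglia (n = 3 each). All 7 microglial markers checked (such as P2ry12, Tmem119 and Sall1) were present in every group, with summed values of 534500 to 682600 in KO transplant, 561200 to 597500 in WT transplant and 732200 to 1138000 in the microglia. Apoe alone took 12.3 to 16.2% of the reads of the transplant libraries. Libraries S30 and S31 (WT transplant), S25 and S27 (KO microglia) and S22 and S23 (WT microglia) were closer to each other than any other pair within a group, with chi-square values per degree of freedom of 4.92, 9.62 and 6.11 against 13.1 or more. The close pairs matter for the proteasome genes, because S30 and S31 carried the highest values of Psmb8, Psmb9, Psmb10 and Psme1 and S25 and S27 differed from the remaining KO library, S26, in many subunits. In bulk samples, fewer cells of a type and less RNA per cell cannot be told apart.

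The proteasome degrades ubiquitin-tagged proteins in the cytosol and nucleus. Its 20S core is a barrel of alpha rings, which gate the entry, around beta rings, of which the subunits encoded by Psmb5, Psmb6 and Psmb7 cut the chain. The 19S cap recognises ubiquitin, removes it and unfolds the substrate with a ring of ATPases. Interferons, above all interferon gamma, induce Psmb8 (LMP7), Psmb9 (LMP2) and Psmb10 (MECL-1), which are built into new cores in place of Psmb5, Psmb6 and Psmb7. They also induce Psme1 and Psme2, whose products PA28 alpha and PA28 beta form a cap that needs no ubiquitin. The resulting immunoproteasome supplies many peptides for MHC class I, and cells of blood origin hold it even without interferon. A shortage of proteasome activity is met through the transcription factor Nfe2l1 (TCF11/NRF1), while Nfe2l2 (NRF2) links proteasome genes to oxidative stress.

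Promoter windows were searched for the motifs through which interferons and oxidative stress act on genes, and stretches that hold a match are printed for 7 genes. RefSeq (GRCm38.p6) gave a window, from 250 bases before to 50 after its start, for 41 of the 49 genes. Psma8, Psmb1, Psmb2, Psmb7, Psmc3, Psmd3, Psmd7 and Psmg2 had no entry. The windows of the catalytic immunosubunits, at chr17:34197945-34198244 (plus strand, Psmb8), chr17:34187281-34187580 (minus strand, Psmb9) and chr8:105938343-105938642 (minus strand, Psmb10), held none of the motifs. GENCODE places the starts of these genes further upstream than RefSeq. Of the 300 bases of each window, 300 (Psmb8), 300 (Psmb9) and 102 (Psmb10) lie within the GENCODE extents given with the values. These windows hold no match, and no stretch of them is printed. The window of Psmb9 shares 275 bases with that of Tap1, its divergent neighbour on the plus strand (window chr17:34187306-34187605), which encodes a subunit of the peptide transporter that feeds MHC class I. The motifs were searched on both strands. The interferon-stimulated response element, searched as GAAA, a pair of any bases and GAAA again, was found in the windows of 5 of the 41 genes, against 3.44% of all 32851 windows. The stretches around those 5 matches are printed below. Psme1, Psmb3 and Psmg4 were among the 7 proteasome genes that were higher in WT transplant than in WT microglia. Of the others among the 7, Psmb8, Psmb9 and Psmb10 had no match and Psmb2 had no window. Whether a match goes with a change was not tested. The windows of Psme1 (chr14:55578244-55578543) and Psmd9 (chr5:123227940-123228239) also lie wholly within the GENCODE extents of these genes (chr14:55578123-55581529 and chr5:123169413-123250131). Their matches therefore lie downstream of the GENCODE starts, as does that of Psmg4. Capitals mark the match, which reads as the reverse complement in Psme1, Psmb3 and Psmd4.
Psme1 (chr14:55578493-55578522, plus strand): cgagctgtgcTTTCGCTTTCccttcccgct
Psmb3 (chr11:97703261-97703290, plus strand): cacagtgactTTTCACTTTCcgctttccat
Psmg4 (chr13:34162969-34162998, plus strand): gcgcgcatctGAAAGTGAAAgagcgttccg
Psmd4 (chr3:95042675-95042704, minus strand): ataaccaaccTTTCCATTTCtgtggcgcct
Psmd9 (chr5:123228021-123228050, plus strand): gggacagaatGAAAAAGAAAggaatgaaca
The gamma-activated site TTCCNGGAA was in the window of 0 of the 41 genes and in 1.15% of all windows. The core of the antioxidant response element, TGACNNNGC, was in the windows of 6 (Psmb5, Psmb6, Psmc6, Psmd9, Psmd12 and Psme4) and in 12.4% of all windows. Its matches in the constitutive catalytic subunits Psmb5 and Psmb6 are shown, with the match in capitals, since these are the partners that Psmb8 and Psmb9 replace.
Psmb5 (chr14:54618023-54618052, minus strand): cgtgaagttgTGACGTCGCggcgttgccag
Psmb6 (chr11:70525338-70525367, plus strand): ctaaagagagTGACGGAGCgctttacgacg
A match is only a run of letters, and overlap between the motifs within a window was not counted.

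The catalytic immunosubunits Psmb8 and Psmb9 were higher in transplanted cells than in resident 5xFAD microglia of the same genotype, and Psmb10 was so in WT cells. The difference passed the test for all 3 in WT transplant against WT microglia and for Psmb8 and Psmb9 in KO transplant against KO microglia. None of the 5 immunoproteasome genes passed for the Trem2 genotype within either kind of cell, nor for 5xFAD against normal microglia. Values below are the deposited normalized read counts. Changes are log2 fold changes of value + 1 with their standard error (SE) from limma, and calls needed a p under 0.05 after Benjamini-Hochberg adjustment over all 12074 genes.

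**Figure D1:**
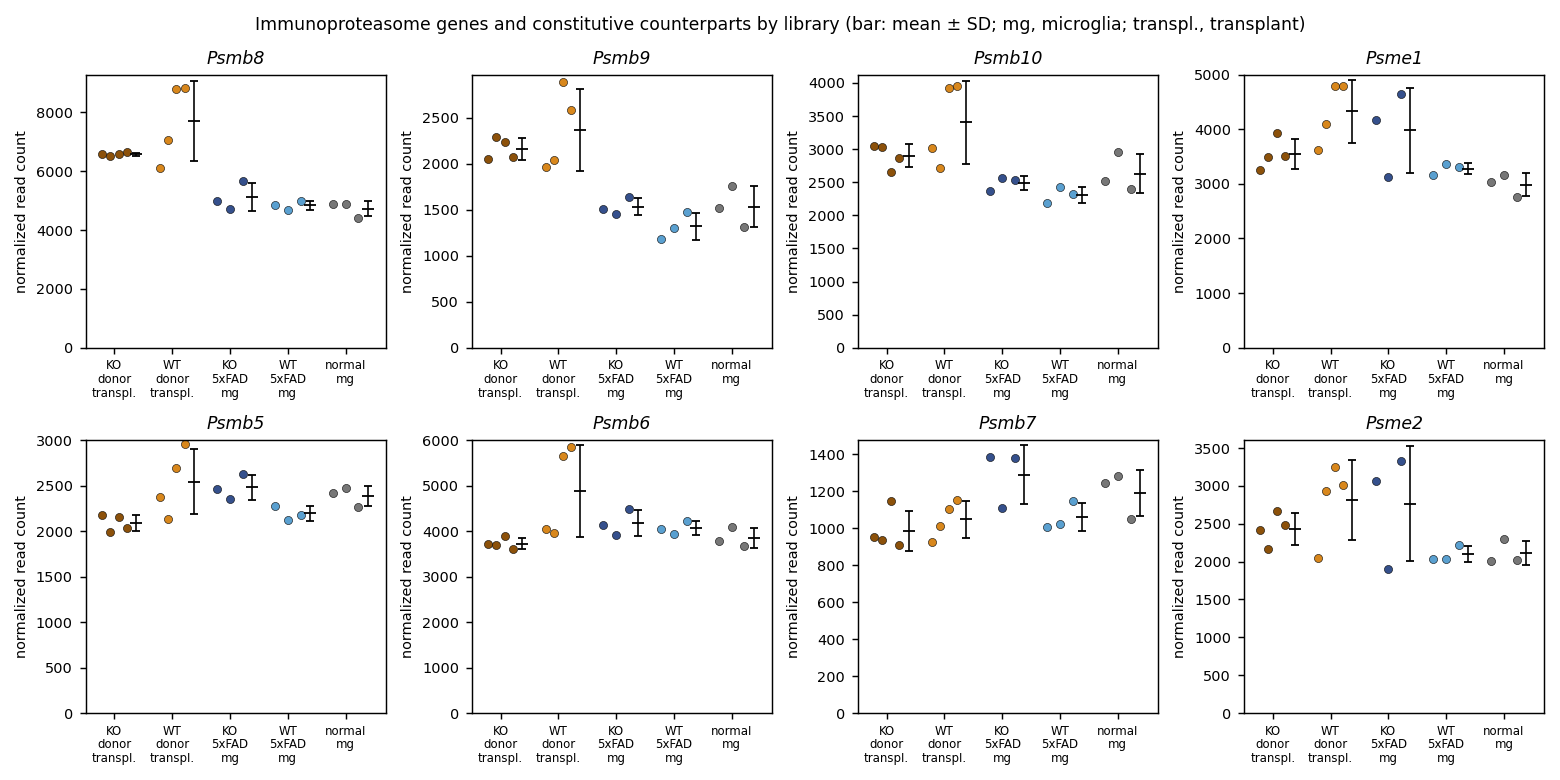
Normalized read count (y axis, linear from 0) of the 5 immunoproteasome genes and of Psmb5, Psmb6 and Psmb7 in each library (points) by group (x axis), with the group mean and SD to the right of the points. Psmb8, Psmb9 and Psmb10 differ between transplanted cells and 5xFAD microglia without overlap, while Psme1 and Psme2 are high in 2 of the 3 KO microglia libraries.

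Psmb8 had values of 6574, 6531, 6582 and 6649 in KO transplant and of 6110, 7066, 8810 and 8846 in WT transplant. It had 5004, 4724 and 5661 in KO microglia, 4860, 4687 and 4984 in WT microglia, and 4880, 4877 and 4425 in normal microglia. Every transplant library lay above every microglia library, with S30 and S31 highest. Psmb8 (chromosome 17, 34197721 to 34201454, plus strand) rose by 0.65 (SE 0.12, adjusted p 0.00038) in WT transplant against WT microglia, by 0.36 (SE 0.12, adjusted p 0.0297) in KO transplant against KO microglia and by 0.57 (SE 0.12, adjusted p 0.00117) in WT transplant against KO microglia. Without S30 and S31 the first of these was 0.44 (adjusted p 0.00908), and the KO call was lost without S32, S33, S35, S25 or S26 in turn.

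Psmb9 had 2054, 2296, 2234 and 2075 in KO transplant, and 1962, 2046, 2886 and 2582 in WT transplant. It had 1514, 1452 and 1640 in KO microglia, 1184, 1299 and 1476 in WT microglia, and 1516, 1762 and 1317 in normal microglia. Here too no microglia library reached the lowest transplant library. Psmb9 (chromosome 17, 34181987 to 34187764, minus strand) rose by 0.83 (SE 0.14, adjusted p 0.000165) in WT transplant against WT microglia, by 0.50 (SE 0.14, adjusted p 0.0126) in KO transplant against KO microglia and by 0.61 (SE 0.14, adjusted p 0.00259) in WT transplant against KO microglia. All 3 calls were kept when any 1 of the 7 libraries compared was left out, but without S30 and S31 the value against KO microglia was 0.39 (adjusted p 0.0553). Exons of Psmb9 and Tap1 overlap by 212 bases on opposite strands, and reads there cannot be assigned if strand was not used in counting.

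Psmb10 had 3040, 3037, 2660 and 2873 in KO transplant and 3022, 2716, 3930 and 3948 in WT transplant. It had 2366, 2565 and 2535 in KO microglia, 2181, 2425 and 2321 in WT microglia, and 2523, 2958 and 2396 in normal microglia. The transplant libraries lay above the 5xFAD microglia, but normal S21 lay among them. Psmb10 (chromosome 8, 105935735 to 105938444, minus strand) rose by 0.54 (SE 0.13, adjusted p 0.00357) in WT transplant against WT microglia and by 0.43 (SE 0.13, adjusted p 0.0141) against KO microglia. The difference between KO transplant and KO microglia was 0.22 (95% interval -0.05 to 0.49, adjusted p 0.228). Without S30 and S31 the value was 0.31 (adjusted p 0.0847) against WT microglia and 0.20 (adjusted p 0.232) against KO microglia, and the call against KO microglia was also lost without S25.

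Markers of other brain cells moved with this contrast. Astrocyte markers (5 of 5 in the table) summed to 622 to 788 in KO transplant and 503 to 992 in WT transplant, against 4462 to 7525 in KO microglia, 4265 to 6808 in WT microglia and 4465 to 5722 in normal microglia. Endothelial markers (6 of 6) summed to 236 to 414 in KO transplant and 305 to 1221 in WT transplant, against 1099 to 1324 in KO microglia, 1311 to 1630 in WT microglia and 655 to 1181 in normal microglia. No marker of either list was at 0 in all libraries of a group, and their part in the differences was not tested.

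With each close pair of libraries averaged into 1, Psmb8 was at 0.57 (adjusted p 0.0114), Psmb9 at 0.71 (adjusted p 0.00737) and Psmb10 at 0.46 (adjusted p 0.0545) in the WT comparison. In the KO comparison Psmb8 was then at 0.39 (adjusted p 0.0597) and Psmb9 at 0.51 (adjusted p 0.0348).

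The PA28 genes behaved otherwise. Psme1 had 3260, 3483, 3931 and 3506 in KO transplant and 3627, 4090, 4791 and 4789 in WT transplant. It had 4164, 3118 and 4648 in KO microglia, 3164, 3356 and 3305 in WT microglia, and 3035, 3163 and 2759 in normal microglia. Psme1 (chromosome 14, 55578123 to 55581529, plus strand) was called in WT transplant against WT microglia alone, at 0.39 (SE 0.13, adjusted p 0.0323). That call was lost without any one of S30, S31, S22, S23 and S24, and without both S30 and S31 the value was 0.23 (adjusted p 0.328). KO microglia S25 and S27 lay as high as the transplant libraries, and S26 as low as the other microglia.

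Psme2 had 2420, 2165, 2670 and 2477 in KO transplant and 2052, 2938, 3249 and 3010 in WT transplant. It had 3066, 1898 and 3330 in KO microglia, 2029, 2041 and 2222 in WT microglia, and 2013, 2303 and 2024 in normal microglia. Psme2 (chromosome 14, 55587441 to 55591113, minus strand) was called in no comparison, and its largest difference between transplant and microglia of the same genotype was 0.40 (SE 0.17, adjusted p 0.0915) in WT cells. In KO cells the differences were -0.15 for Psme1 (95% interval -0.43 to 0.13) and -0.15 for Psme2 (-0.51 to 0.22). Psme2b shares 541 runs of 50 bases with Psme2, which is 68.7% of the runs of Psme2b and 28.3% of those of Psme2, so that counts of both are uncertain. Psme2b averaged 301 ± 74 in KO transplant, 263 ± 19 in WT transplant (SD, n = 4 each), 381 ± 108 in KO microglia, 269 ± 37 in WT microglia and 237 ± 66 in normal microglia (n = 3 each).

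To set each immunosubunit beside the subunit it replaces, values were divided by transcript length. The share of Psmb8 in the sum of Psmb8 and Psmb5 was 63.5 ± 1.0% in KO transplant and 62.5 ± 2.8% in WT transplant (SD, n = 4 each), against 53.3 ± 1.0% in KO microglia, 54.9 ± 0.9% in WT microglia and 52.3 ± 0.4% in normal microglia (n = 3 each). Its lowest transplant share (58.6%, S28) lay above its highest microglial share (55.8%). The share of Psmb9 in the sum with Psmb6 was 24.6 to 26.9% in KO transplant and 20.7 to 23.4% in WT transplant, against 17.7 to 17.9% in KO microglia, 14.7 to 17.1% in WT microglia and 17.5 to 20.3% in normal microglia. S30 and S31 did not stand apart in these shares, since Psmb5 and Psmb6 were high in them as well. For Psmb10 with Psmb7 the shares were 67.3 to 74.1% in KO transplant, 70.4 to 75.9% in WT transplant, 60.2 to 67.2% in KO microglia, 64.1 to 67.7% in WT microglia and 64.2 to 67.1% in normal microglia. The Psmb10 share of S34 (67.3%) lay within the microglial range. These shares are a description, depend on the transcript chosen for each gene, and were not tested.

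**Figure D2:**
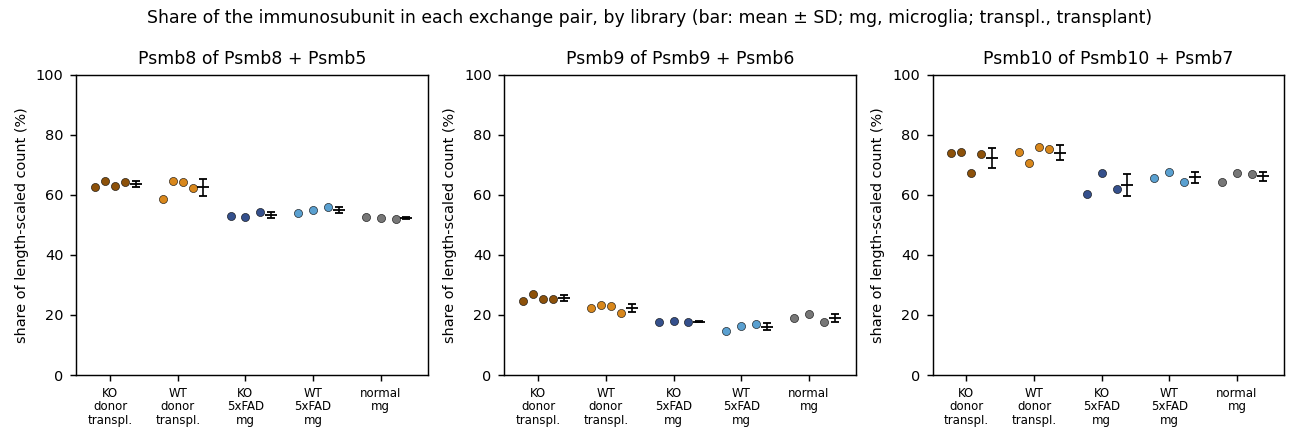
Share (%) of the immunosubunit in the length-scaled count of each exchange pair (y axis, 0 to 100) by library and group (x axis), with the group mean and SD. For Psmb8 all 8 transplant libraries lie above all 9 microglia libraries, at 58.6 to 64.6% against 51.9 to 55.8%.

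Per kilobase of transcript, Psmb6 had the highest mean of the 49 genes in every group, at 4672 ± 154 in KO transplant, 6121 ± 1271 in WT transplant, 5245 ± 365 in KO microglia, 5108 ± 185 in WT microglia and 4823 ± 271 in normal microglia. Psmb8 had rank 2 in KO transplant (4044 ± 30 per kilobase), in WT transplant (4735 ± 830) and in WT microglia (2975 ± 92). It had rank 6 in KO microglia (3151 ± 296) and rank 3 in normal microglia (2904 ± 161). In WT microglia the next genes in order, Psme1 (2945 ± 89) and Psmb3 (2869 ± 60), differed from Psmb8 by about the spread between libraries or less. Psmb9 had rank 13 in KO transplant and 14 in WT transplant, against 24 in KO microglia, 26 in WT microglia and 24 in normal microglia. The lowest was Psma8, the testis form of an alpha subunit, at 27.9 to 71.1 per kilobase over the 5 group means. Psmc3ip, a meiotic recombination factor that is no proteasome subunit, averaged 141 ± 7 in KO transplant, 126 ± 15 in WT transplant, 123 ± 28 in KO microglia, 111 ± 14 in WT microglia and 118 ± 2 in normal microglia, as normalized read counts. Neither of these was called in any comparison.

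WT transplant against WT microglia asks how wild-type cells from the circulation differ from wild-type residents. The mouse around the cells differs too, as a Trem2-knockout host against a Trem2-wildtype mouse. Of all genes tested 28.2% were called, 13.6% higher and 14.6% lower. Of the 49 proteasome genes 7 were higher and 1 was lower, and their median difference was 0.01, against -0.03 over all genes. Among the 5 immunoproteasome genes 4 were higher, with a median of 0.54. Among the 41 constitutive genes 3 were higher and 1 was lower, with a median of -0.01. Per class, 2 of 7 beta ring genes were higher and 1 of 11 non-ATPase cap genes was lower, while 0 of 7 alpha ring genes and 0 of 6 ATPase genes were called.

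Among those called, Psmb2, a beta ring subunit with no cutting site, had 2905, 3250, 3499 and 3348 in WT transplant and 2379, 2365 and 2364 in WT microglia. Its groups did not overlap, it rose by 0.45 (SE 0.10, adjusted p 0.0017), and without S30 and S31 it was at 0.37 (adjusted p 0.0297). Psmb3, another beta ring subunit, had 2583, 2555, 3630 and 3653 in WT transplant and 2159, 2248 and 2187 in WT microglia. It rose by 0.48 (SE 0.14, adjusted p 0.0133), a call lost without S31 or without S22, with a value of 0.23 (adjusted p 0.255) without S30 and S31. Psmg4, a chaperone of 20S assembly, had 218, 333, 373 and 399 in WT transplant and 216, 203 and 229 in WT microglia, and the groups overlapped through S28. Its rise of 0.58 (SE 0.20, adjusted p 0.0373) was lost without any one of 6 libraries, S28 not among them. Psmd11, a subunit of the 19S lid, fell to 1431, 1494, 1233 and 1201 in WT transplant, against 1617, 1741 and 1601 in WT microglia, a change of -0.31 (SE 0.11, adjusted p 0.0372) whose call was lost without any one of S30, S31, S22, S23 and S24.

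The constitutive counterparts did not pass the same test. Psmb5 had 2380, 2136, 2694 and 2955 in WT transplant and 2281, 2122 and 2181 in WT microglia, a difference of 0.20 (95% interval -0.02 to 0.43, adjusted p 0.172). Psmb6 differed by 0.24 (-0.03 to 0.50), Psmb7 by -0.02 (-0.29 to 0.25) and Psme3, which encodes the nuclear PA28 gamma, by 0.01 (-0.23 to 0.24). Psmb5 and Psmb6 were highest in S30 and S31, at 2694 and 2955 for Psmb5 and at 5665 and 5855 for Psmb6.

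**Figure D3:**
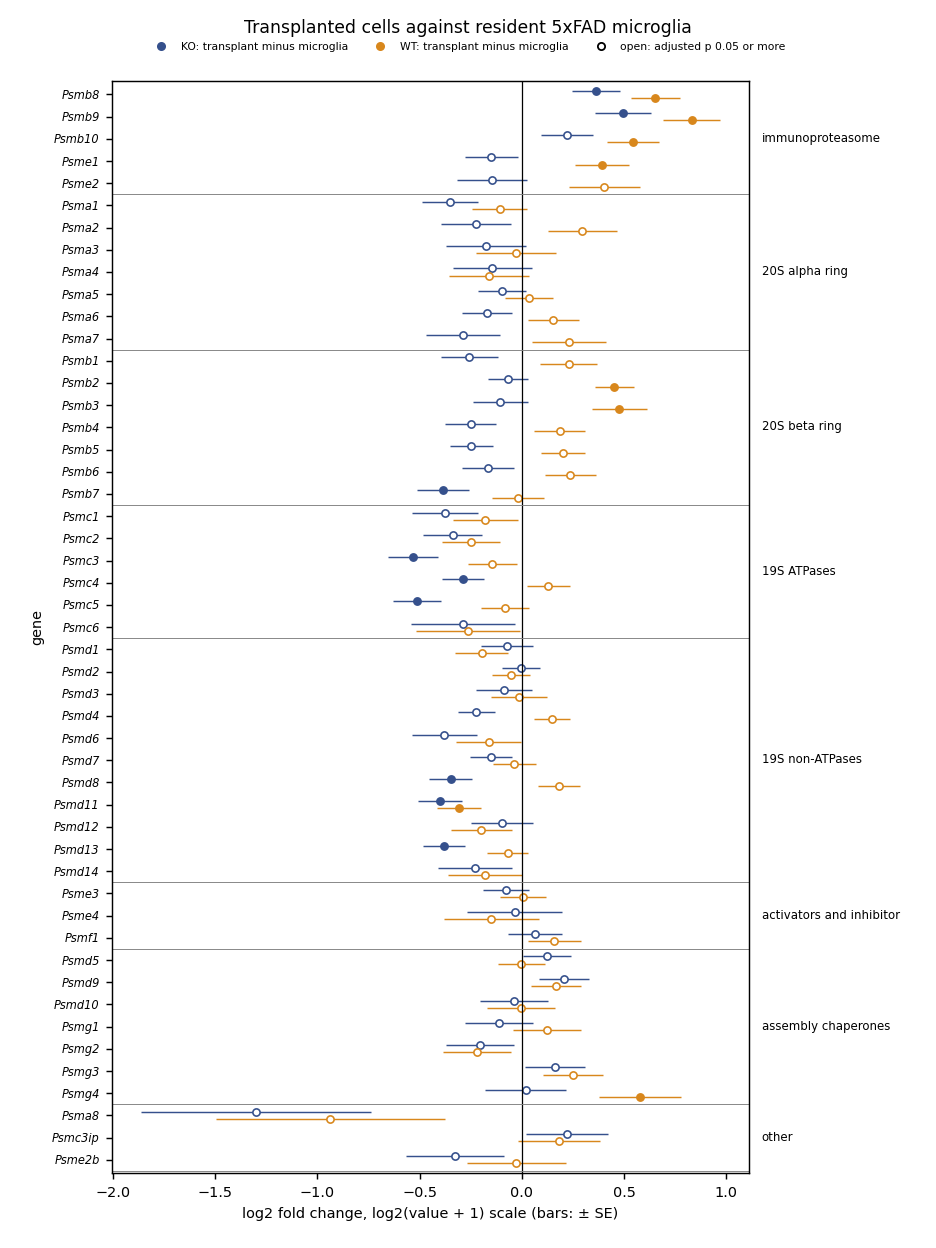
Log2 fold change (x axis, with SE bars) of each of the 49 genes, in rows by class, for KO transplant minus KO microglia (blue) and WT transplant minus WT microglia (orange); filled points passed the test. Psmb8 and Psmb9 are filled and positive in both, and Psmd11 is filled and negative in both, while the called 19S ATPases are negative in the KO comparison.

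KO transplant against KO microglia sets knockout cells from the circulation against knockout residents. Here the cells of both groups lay in knockout mice. Of all genes 25.4% were called, 11.7% higher and 13.7% lower. Of the 49 proteasome genes 2 were higher, Psmb8 and Psmb9, and 7 were lower. The median difference over the 49 was -0.17, against -0.02 over all genes. All 7 genes that fell were constitutive, out of 41, and 36 of the 41 had a negative difference, against 6281 of all 12074 genes. The 7 were 3 of 6 ATPases, 3 of 11 non-ATPase cap subunits and 1 of 7 beta ring subunits.

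Psmc3, an ATPase, had 2533, 2579, 2907 and 2246 in KO transplant and 3987, 2970 and 4268 in KO microglia. It fell by 0.53 (SE 0.12, adjusted p 0.00285). Psmc5, another ATPase, had 1557, 1437, 1742 and 1489 in KO transplant and 2371, 1789 and 2561 in KO microglia, and fell by 0.51 (SE 0.12, adjusted p 0.0031). Neither gene's groups overlapped, but S26 lay nearest to the transplants in both. Without S25 and S27, which leaves 1 KO microglia library assumed to vary like the other groups, the differences were -0.22 (adjusted p 0.318) for Psmc3 and -0.20 (adjusted p 0.331) for Psmc5. Psmb8 was then at 0.48 (adjusted p 0.0562) and Psmb9 at 0.57 (adjusted p 0.0602). Exons of Psmc3 overlap those of Slc39a13 on the opposite strand by 147 bases.

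Psmd13, a lid subunit, had 1512, 1396, 1418 and 1606 in KO transplant and 1956, 2006 and 1828 in KO microglia. It fell by 0.38 (SE 0.10, adjusted p 0.00919) with no overlap, and without S25 and S27 it was at -0.44 (adjusted p 0.0453). It was the one gene of the 9 whose call was kept without that pair. Its exons overlap those of Sirt3 on the opposite strand by 329 bases. Psmd11 had 1374, 1331, 1301 and 1261 in KO transplant and 1714, 1566 and 1950 in KO microglia, and fell by 0.40 (SE 0.11, adjusted p 0.00941), a call lost without S27. Psmd8, a lid subunit, fell by 0.35 (SE 0.10, adjusted p 0.0195), a call lost without S32, S33, S25 or S27. Psmc4, an ATPase, fell by 0.29 (SE 0.10, adjusted p 0.0499), a call lost without any one of 6 libraries.

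Of the counterparts, Psmb7 had 952, 938, 1145 and 910 in KO transplant and 1387, 1106 and 1377 in KO microglia. The groups overlapped through S34 and S26, and Psmb7 fell by 0.39 (SE 0.13, adjusted p 0.0317), a call lost without any one of S32, S33, S35, S25 and S27. Exons of Psmb7 overlap those of Nek6 on the opposite strand by 253 bases. Psmb5 differed by -0.25 (adjusted p 0.101), Psmb6 by -0.17 (adjusted p 0.376) and Psme3 by -0.08 (adjusted p 0.659). Psmb5 and Psmb6 were lower in KO transplant without overlap between the libraries, while their immunosubunits Psmb8 and Psmb9 were higher without overlap. No overlap in the lower direction was seen for 15.6% of all genes here, and for 10 of the 49.

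WT transplant against KO microglia sets the replacing cells against the cells they would replace. Of all genes 35.1% were called, 17.3% higher and 17.8% lower. The 3 catalytic immunosubunits were higher and 6 of the 41 constitutive genes were lower. Those 6 were 4 ATPases (Psmc2, Psmc3, Psmc5 and Psmc6) and 2 lid subunits (Psmd6 and Psmd11). Psmc6 had 537, 586, 538 and 548 in WT transplant and 1263, 603 and 1264 in KO microglia. The difference of -0.84 (SE 0.25, adjusted p 0.0167) rested on S25 and S27, and without them it was -0.13 (adjusted p 0.819). Psmd11 fell by 0.38 (SE 0.11, adjusted p 0.0106), Psmc5 by 0.38 (SE 0.12, adjusted p 0.017), Psmc3 by 0.36 (SE 0.12, adjusted p 0.027), Psmd6 by 0.47 (SE 0.16, adjusted p 0.0286) and Psmc2 by 0.40 (SE 0.14, adjusted p 0.0376). Leaving out S27 alone lost all 6 of these, and leaving out S25 alone lost all but Psmd11. The counterparts were not called, with Psmb5 at 0.03, Psmb6 at 0.20, Psmb7 at -0.30 (adjusted p 0.0754) and Psme3 at 0.19. The PA28 genes were at 0.13 for Psme1 (adjusted p 0.458) and 0.05 for Psme2 (adjusted p 0.857). This comparison shares its libraries with the 2 before it.

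**Figure D4:**
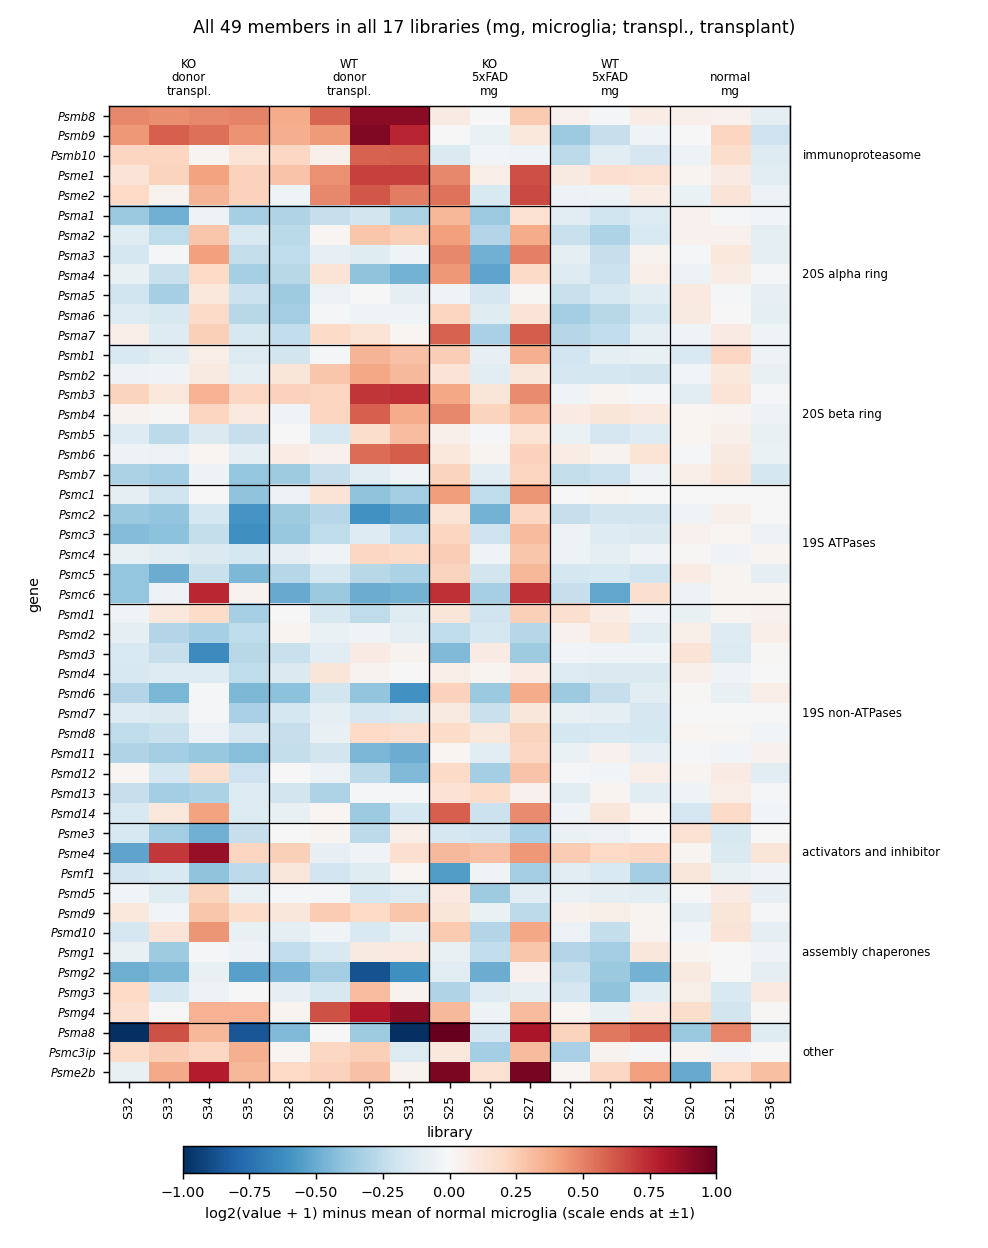
Log2(value + 1) of the 49 genes (rows, by class) in the 17 libraries (columns, by group), as the difference from the mean of normal microglia (colour, ending at ±1). Psmb8 and Psmb9 are higher in all 8 transplant libraries, and S25 and S27 of the KO microglia differ from S26 across the alpha ring, the ATPases, Psme1 and Psme2.

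Trem2 genotype in resident 5xFAD microglia gave no called gene among the 49, against 5.09% of all genes. Calls among the 49 were 0 by edgeR and 1 by DESeq2 (Psmd8), but 30 by limma with array weights, where 48.5% of all genes were called. At an unadjusted p under 0.05 there were 9 of the 49, against 2626 of all 12074 genes. Of the 49 differences 42 were positive (KO minus WT), against 5937 of all 12074 genes, with a median of 0.19 against -0.01 over all genes. The libraries did not share this. The mean log2 difference of the constitutive genes from normal microglia was 0.17 in S25 and 0.19 in S27, but -0.16 in S26. It was -0.12 to -0.06 in WT microglia. The smallest p-values belonged to Psmd8, Psma6 and Psma7. Psmd8 had 3188, 3022 and 3272 in KO microglia and 2484, 2522 and 2480 in WT microglia, a difference of 0.34 (SE 0.11, adjusted p 0.0892) with no overlap. Psma6, an alpha ring subunit, was at 0.34 (SE 0.13, adjusted p 0.148). Psma7, another alpha subunit, had 3564, 1898 and 3616 in KO microglia and 1946, 1998 and 2234 in WT microglia, so that S26 lay below all WT libraries and S25 and S27 above them. Its difference was 0.50 (SE 0.19, adjusted p 0.148).

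Much of the spread of the KO microglia was between S26 and the other pair. The mean log2 difference of the 7 alpha ring genes from normal microglia was 0.35 in S25 and 0.28 in S27, and -0.32 in S26. The mean of the 6 ATPases was 0.33 in S25 and 0.38 in S27, and -0.25 in S26. Over Psme1 and Psme2 it was 0.51 in S25 and 0.65 in S27, and -0.04 in S26. The mean of the catalytic immunosubunits did not separate S26, at -0.02 in S25, 0.11 in S27 and -0.03 in S26. With S26 left out, 21 of the 49 genes were called higher and 1 lower against WT microglia, where 30.4% of all genes were then called. Among them were Psme1 at 0.43 (adjusted p 0.017), Psme2 at 0.61 (adjusted p 0.00793) and Psma7 at 0.80 (adjusted p 0.000709). With S25 and S27 left out none was called, and Psme1 was at -0.07 and Psme2 at -0.14. Neutrophil markers (7 of 8 in the table) summed to 107000 in S25 and 115300 in S27, against 41000 in S26 and 3723 to 4796 in WT microglia. Monocyte markers summed to 15780 in S25 and 15960 in S27, against 5838 in S26 and 1246 to 1431 in WT microglia. Neutrophil sums were 8350 to 26730 in KO transplant, 11650 to 17490 in WT transplant and 7960 to 16850 in normal microglia. Monocyte sums were 2057 to 4237 in KO transplant, 2153 to 3564 in WT transplant and 1977 to 3022 in normal microglia. All 8 transplant libraries lay below the KO microglia and above WT microglia for both, and overlapped the normal microglia. No marker of these lists was at 0 in all libraries of a group, and the part of such cells in the proteasome values was not tested.

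**Figure D5:**
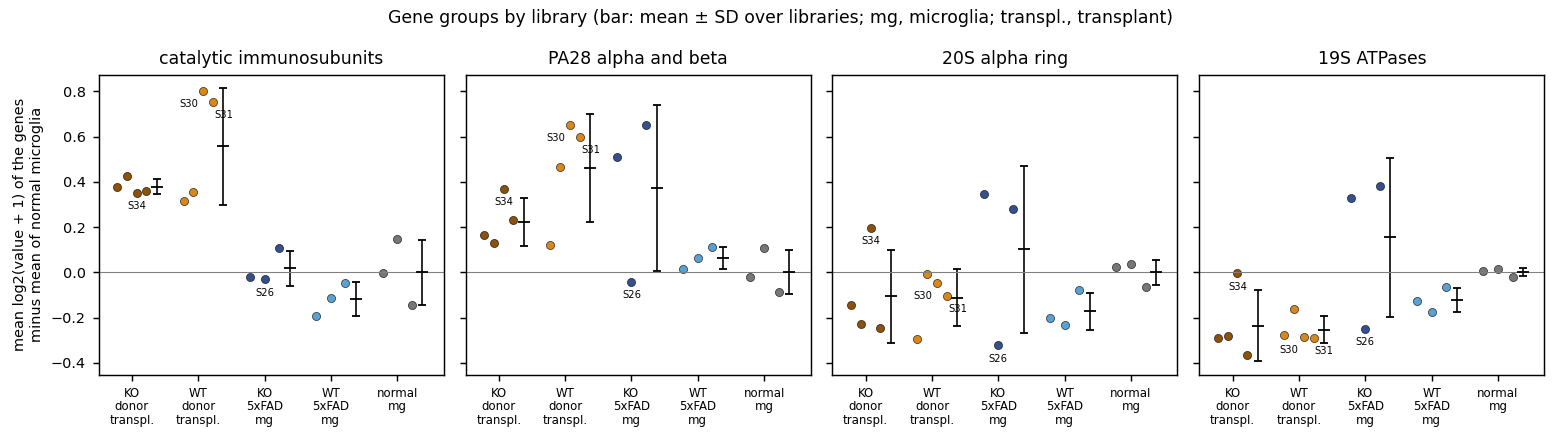
Mean over the genes of a class of log2(value + 1), as the difference from normal microglia (y axis), by library and group (x axis), with the group mean and SD; libraries S26, S30, S31 and S34 are named. The catalytic immunosubunits lie at 0.32 to 0.80 in the transplants, and S26 lies apart from the other KO microglia for PA28, the alpha ring and the ATPases.

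The immunoproteasome genes did not pass between KO and WT microglia. Psmb8 was at 0.08 (95% interval -0.19 to 0.34, adjusted p 0.736), Psmb9 at 0.22 (-0.09 to 0.53, adjusted p 0.383) and Psmb10 at 0.11 (-0.18 to 0.39, adjusted p 0.663). Psme1 was at 0.26 (-0.03 to 0.56, adjusted p 0.284) and Psme2 at 0.36 (-0.03 to 0.75, adjusted p 0.265). Their counterparts were at 0.18 for Psmb5, 0.04 for Psmb6, 0.28 for Psmb7 and -0.18 for Psme3, with adjusted p-values of 0.241 or more.

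Trem2 genotype in transplanted cells likewise gave 0 calls among the 49 with limma, against 6.74% of all genes. At an unadjusted p under 0.05 there were 8 of the 49, against 3245 of all 12074 genes. By edgeR 0 were called, and by DESeq2 3, namely Psmb2, Psmb5 and Psmb6. With array weights limma called 17 of the 49, against 28.5% of all genes. Psmb2 had 2586, 2614, 2848 and 2523 in KO transplant and 2905, 3250, 3499 and 3348 in WT transplant, a difference of -0.30 (SE 0.09, adjusted p 0.0538) without overlap. Psmb6 had 3717, 3689, 3899 and 3608 in KO transplant and 4058, 3960, 5665 and 5855 in WT transplant, a difference of -0.37 (SE 0.12, adjusted p 0.0635). Psmb5 was at -0.27 (SE 0.10, adjusted p 0.0927), Psmb7 at -0.09 (adjusted p 0.651) and Psme3 at -0.27 (adjusted p 0.117). Among immunoproteasome genes Psmb8 was at -0.21 (95% interval -0.44 to 0.02), Psmb9 at -0.11 (-0.38 to 0.16), Psmb10 at -0.21 (-0.46 to 0.04), Psme1 at -0.28 (-0.53 to -0.02) and Psme2 at -0.19 (-0.53 to 0.14), with adjusted p-values of 0.151 to 0.588. Without S30 and S31 Psmb8 was at 0.0029, Psmb9 at 0.11 and Psmb10 at 0.017. Oligodendrocyte markers (6 of 6 in the table) summed to 4525 to 6226 in KO transplant and to 7051, 11090, 23220 and 23480 in S28, S29, S30 and S31 of WT transplant. Their part in these values was not tested.

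The difference in the effect of Trem2 between transplanted and resident cells was tested as an interaction, in which 2.82% of all genes were called. Trem2 differed only in the donor cells of the transplants, but in the whole mouse for the residents. The interaction cannot tell this apart from cell origin. Among the 49 it was called for Psmb2 alone, at -0.52 (SE 0.14, adjusted p 0.049). Psmb2 was lower in KO than in WT transplant (mean 2643 ± 142 and 3251 ± 252, n = 4 each) and higher in KO than in WT microglia (2773 ± 248 and 2369 ± 8, n = 3 each). That call was lost in 14 of the 17 fits that left out 1 library. Next in order, and not passing, were Psmd8 at -0.53 (adjusted p 0.0616) and Psmb3 at -0.58 (adjusted p 0.112). The interaction was negative for all 5 immunoproteasome genes and for 33 of the 41 constitutive genes, against 5996 of all 12074 genes. All 7 beta ring genes were negative, with a median of -0.45, against -0.34 over the 5 immunoproteasome genes. The sign was thus not particular to the immunoproteasome. The interaction was at -0.29 for Psmb8, -0.34 for Psmb9, -0.32 for Psmb10, -0.54 for Psme1 and -0.55 for Psme2, with adjusted p-values of 0.126 to 0.383. So a larger difference of Psmb8 and Psmb9 between transplants and microglia in WT than in KO cells was not shown.

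WT and KO microglia were each set against the same wild-type normal microglia, and both comparisons gave 0 called proteasome genes with unweighted limma. In WT microglia 3.78% of all genes were called. At an unadjusted p under 0.05 there were 0 of the 49, against 1955 of all 12074 genes. Calls among the 49 were 0 by edgeR and DESeq2 and 1 by limma with array weights, against 18.4% of all genes with those weights. The smallest p-values were those of Psma6 at -0.27 (SE 0.13, adjusted p 0.337), the 20S assembly chaperone Psmg2 at -0.35 (SE 0.18, adjusted p 0.346) and Psmb2 at -0.18 (SE 0.10, adjusted p 0.441). Of the 49 differences 35 were negative, against 5985 of all 12074 genes, with a median of -0.10 against 0.004 over all genes. Without overlap between the groups, 15 of the 49 were lower and 3 higher, against 2036 and 2022 of all 12074 genes. All 7 alpha ring genes were on the lower side, at -0.09 to -0.27. Psmb8 was at 0.04 (95% interval -0.23 to 0.30), Psmb9 at -0.21 (-0.52 to 0.10), Psmb10 at -0.18 (-0.47 to 0.11), Psme1 at 0.14 (-0.16 to 0.43) and Psme2 at -0.01 (-0.40 to 0.38). Their counterparts were at -0.12 for Psmb5, 0.08 for Psmb6, -0.17 for Psmb7 and -0.05 for Psme3.

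In KO microglia against normal microglia 3.91% of all genes were called. At an unadjusted p under 0.05 there were 6 of the 49, against 3462 of all 12074 genes. Calls among the 49 were again 0 by edgeR and DESeq2 but 22 by limma with array weights, against 50.4% of all genes with those weights. Psme1 came first at 0.40 (SE 0.14, adjusted p 0.0913), then Psme2b at 0.68 (SE 0.26, adjusted p 0.105) and the beta ring subunit Psmb4 at 0.34 (SE 0.13, adjusted p 0.116). Psmb4 had 2289, 1910 and 2026 in KO microglia and 1659, 1669 and 1584 in normal microglia, with no overlap. Psmb8 was at 0.12 (adjusted p 0.562), Psmb9 at 0.01, Psmb10 at -0.07 and Psme2 at 0.35 (adjusted p 0.219). Psmb5 was at 0.06, Psmb6 at 0.12, Psmb7 at 0.11 and Psme3 at -0.23. Without S26 there were 14 calls among the 49, 11 higher and 3 lower, against 38.1% of all genes, with Psme1 at 0.56 (adjusted p 0.0025) and Psme2 at 0.60 (adjusted p 0.00621).

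The genes of the same pathway were followed beside the proteasome, first those of MHC class I, which displays its peptides. Of 17 genes 7 were higher and 1 was lower in WT transplant than in WT microglia (13.6% and 14.6% of all genes). In KO transplant against KO microglia 10 were higher and 0 lower (11.7% and 13.7% of all genes), and 0 were called for Trem2 within either kind of cell. All 17 differences were nonetheless negative in KO minus WT microglia, against 6135 of all 12074 genes, with a median of -0.34 against -0.01. In KO minus WT transplant 11 of the 17 were negative, against 6544 of all 12074 genes. H2-K1, a class I heavy chain, averaged 31940 ± 2242 in KO transplant and 36610 ± 8380 in WT transplant, against 14880 ± 2083 in KO microglia, 18870 ± 1449 in WT microglia and 14000 ± 1588 in normal microglia. It rose by 0.93 (SE 0.16, adjusted p 0.000194) in the WT and by 1.11 (SE 0.16, adjusted p 3.34e-05) in the KO comparison of transplant with microglia. H2-D1, another heavy chain, rose by 0.73 (adjusted p 0.00237) and 0.99 (adjusted p 0.000167) in the same comparisons. Nlrc5, the transactivator of class I genes, rose by 0.98 (adjusted p 0.00617) in WT cells, and Erap1, which trims peptides in the endoplasmic reticulum, fell by 0.52 (adjusted p 0.00399). H2-D1 was also the one gene of this list called in WT microglia against normal microglia, at 0.78 (adjusted p 0.0132), where Psmb8 and Psmb9 were not called. In WT transplant against KO microglia 11 were higher and 1 was lower (17.3% and 17.8% of all genes). Read assignment among the near-identical class I genes is uncertain.

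Of 17 interferon receptors, regulators and targets, 3 were higher and 2 lower in WT transplant than in WT microglia, near the 13.6% and 14.6% of all genes. In KO transplant against KO microglia 4 were higher and 0 lower (11.7% and 13.7% of all genes). The 2 lower genes were Jak1 (-0.43, adjusted p 0.00255) and Jak2 (-0.61, adjusted p 0.032), kinases of the interferon receptors. Irf1, an interferon-gamma-induced factor that acts on Psmb9 and Tap1, averaged 3413 ± 209 in KO transplant and 3426 ± 327 in WT transplant, against 2174 ± 475 in KO microglia, 2310 ± 140 in WT microglia and 2735 ± 260 in normal microglia. It rose by 0.57 (SE 0.13, adjusted p 0.00259) in the WT and 0.67 (SE 0.13, adjusted p 0.000673) in the KO comparison. Ifi47, an interferon-inducible GTPase, rose by 2.85 (adjusted p 3.36e-09) in WT and 1.86 (adjusted p 1.18e-06) in KO transplants, and Gbp3, another, by 1.38 (adjusted p 4.99e-05) and 1.05 (adjusted p 0.000851). Igtp was at -0.27 (adjusted p 0.0639) in the WT comparison, and was lower in WT transplant than in KO microglia (-0.40, adjusted p 0.00839). Over the 17 genes the median difference was -0.03 in the WT and 0.12 in the KO comparison, against -0.03 and -0.02 over all genes. Ifi47 (1.41, adjusted p 0.000401) and Gbp3 (0.81, adjusted p 0.0364) were also higher in KO than in WT microglia, a comparison in which no proteasome gene was called. Ifi47 was lower in WT than in normal microglia, at -0.88 (adjusted p 0.0207). Between KO and WT transplant, Igtp (0.47, adjusted p 0.0161) and Ifngr1 (0.41, adjusted p 0.0295) were called, both higher in KO. T and NK cells are a source of interferon gamma. Their markers (7 of 8 in the table) summed to 1476 to 3512 in KO transplant and 284 to 2609 in WT transplant, against 413 to 1349 in KO microglia, 88.9 to 161 in WT microglia and 458 to 807 in normal microglia. The part of these cells in the proteasome values was not tested.

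Of 25 tested genes for assembly, regulation and ubiquitin supply, 3 were higher and 2 lower in WT transplant than in WT microglia, and 3 were higher and 0 lower in KO transplant than in KO microglia. These shares are near or below those of all genes (13.6% and 14.6% in the WT, 11.7% and 13.7% in the KO comparison), so the counts show nothing about the list. Nfe2l2 averaged 9691 ± 742 in KO transplant and 9090 ± 1207 in WT transplant, against 4922 ± 387 in KO microglia, 6321 ± 244 in WT microglia and 5352 ± 351 in normal microglia. It rose by 0.52 (SE 0.11, adjusted p 0.00148) in WT and 0.98 (SE 0.11, adjusted p 2.12e-06) in KO transplants. Nfe2l1 (0.66, adjusted p 0.0354) and the protease Ddi2 that activates it (0.81, adjusted p 0.0019) were higher in KO transplant than in KO microglia. Nfe2l1 averaged 1825 ± 332 in KO transplant (1328 to 2007) and 1210 ± 517 in KO microglia (802 to 1791). It averaged 2020 ± 301 in WT transplant, 1921 ± 12 in WT microglia and 1687 ± 333 in normal microglia. A link to the 7 constitutive subunits that fell in that KO comparison was not tested. Akirin2, which brings proteasomes into the nucleus, fell by 0.70 (adjusted p 0.000801) in WT transplant against WT microglia, where the ubiquitin gene Ubb (0.49, adjusted p 0.00532) and the small lid subunit Sem1 (0.71, adjusted p 0.0122) rose. The shuttle factor Ubqln1 (-0.38, adjusted p 0.0341) and the stress-induced Zfand2a (means of 403 in KO and 760 in WT microglia, adjusted p 0.0487) were lower in KO than in WT microglia, and Zfand5 was higher in KO than in WT transplant (0.39, adjusted p 0.0316). In WT transplant against KO microglia 5 were higher and 2 lower (17.3% and 17.8% of all genes), led by Nfe2l2 at 0.88 (adjusted p 6.57e-06).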

How the data were processed

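The authors deposited 1 signal per gene and library, and the values show what it is: within a tolerance of 0.02, at least 99.98% of values in each library were whole multiples of 1 step (in S20 the step was too near 1 to tell), so that each deposited signal equals reads over a factor of its library. Per the submitters' processing notes, STAR 2.5.2b, RSEM, HTSeq, bcl2fastq and DESeq2 (stated version 3.17) were used with builds GRCm38.p6 and mm10. Which tool counted reads, and whether it used strand, is not given in the sources used here. Values were analysed as log2(value + 1) after keeping genes at 10 or more in at least 3 libraries (12074 kept, 1427 removed). All 17 libraries entered 1 limma fit (version 3.58.1, R 4.3.3, lmFit and eBayes with trend) that holds a mean for each group. It gave 8 two-sided contrasts, with Benjamini-Hochberg adjustment over all genes and calls at 0.05. The procedure was tested on simulated counts. Positions and transcript lengths are from GENCODE vM21 (GRCm38). Outside the normal group the columns name the group but not the replicate.

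The alternatives were a pseudocount of 5, no filter, fits of the compared groups only, array weights, rescaling by TMM or upper quartile, edgeR 4.0.16 and DESeq2 1.42.0 on the recovered reads, close pairs averaged, 2 pairs removed, and each library left out. The genes named are the 5 immunoproteasome genes, Psmb5, Psmb6, Psmb7, Psme3, up to 6 other called members per comparison with the smallest p (the first 3 where fewer than 3 were called), and up to 4 of each related list. Psma7, Psmb5 and Psmb6 by library, Jak2, and the members with promoter matches, were added after their values were seen. Members and lists were chosen with earlier results of these data known. One gene of the interferon list is not reported here by name.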

Additional observations from a re-analysis of the deposited data

Results flagged for a closer look

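Among 98 groups of 4 libraries examined gene by gene, 2 held a library far from the other 3, where chance gives about 1 in 20. Psma6, an alpha ring subunit, had its lowest WT transplant value in S28, at 1944, against 2448, 2393 and 2391 in the other 3. Psmg2, a 20S assembly chaperone, had its highest KO transplant value in S34, at 511, against 382, 392 and 368. The effect of Trem2 on Psmb2 differed between transplanted and resident cells, with an interaction of -0.52 (adjusted p 0.049), described above.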

How the results depend on the processing

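Of 27 called differences of single genes, all 27 kept direction and call with no filter, pseudocount 5, array weights and DESeq2, 26 with TMM and with upper-quartile rescaling, and 25 with edgeR. Fits of the compared groups alone kept 12, and averaging close pairs kept 9. For WT transplant minus WT microglia (8 calls), KO transplant minus KO microglia (9), WT transplant minus KO microglia (9) and the interaction (1), the counts were 25, 36, 31 and 27 with array weights, 3, 4, 2 and 0 with close pairs averaged, and 7, 2, 3 and 0 with only the compared groups. Except where a share of all genes is given with a count, here or above, the share called under these other settings was not counted. Such counts cannot be read as particular to the proteasome genes. Array weights were 0.130 for S26, 0.248 for S34 and 0.352 for S28, against 0.499 or more elsewhere. Without S25 and S27 the counts were 1 for KO transplant against KO microglia, 3 for WT transplant against KO microglia and 0 for the interaction. Without S30 and S31 they were 3 against WT microglia, 4 against KO microglia and 0. Upper-quartile rescaling gave 15 for WT transplant against KO microglia and 2 for the interaction, which had 0 with TMM and edgeR and 6 with DESeq2. Where no gene was called, array weights gave 1 (WT against normal microglia, with 18.4% of all genes called) and 22 (KO against normal microglia, 50.4%). They gave 30 for KO against WT microglia (48.5% of all genes) and 17 for KO against WT transplant (28.5%). DESeq2 gave 1 for KO against WT microglia and 3 for KO against WT transplant, and upper-quartile rescaling 1 for KO against WT microglia. Leaving out 1 library gave 0 to 14 calls for KO against normal microglia and 0 to 22 for KO against WT microglia (both highest without S26), 0 to 4 for KO against WT transplant (highest without S28), 4 to 10 for WT transplant against WT microglia, 5 to 22 for KO transplant against KO microglia, 3 to 25 for WT transplant against KO microglia and 0 to 12 for the interaction. One called difference changed sign, that of Psmc2 in WT transplant against KO microglia, which was 0.029 without S25 and S27. The other changes of sign were in differences that had not passed. Without S25 and S27, Psmb8 (-0.036), Psme1 (-0.070) and Psme2 (-0.14) changed sign between KO and WT microglia, Psmb9 (-0.067) and Psme2 (-0.15) between KO and normal microglia, and Psme1 (0.18) and Psme2 (0.35) between KO transplant and KO microglia. Without S30 and S31, Psmb8 (0.0029), Psmb9 (0.11) and Psmb10 (0.017) did so between KO and WT transplant, and Psme1 (-0.026) and Psme2 (-0.13) between WT transplant and KO microglia. Psmb9 between KO and normal microglia was -0.0067 with TMM, -0.0089 with edgeR and -0.0072 with close pairs averaged. Psme2 was 0.012 between WT and normal microglia with close pairs averaged, and between WT transplant and KO microglia -0.083 with array weights, -0.011 with TMM, -0.026 with upper-quartile rescaling and -0.041 with edgeR. With 1 library left out, ranges that crossed 0 were -0.011 to 0.060 (Psmb8) and -0.052 to 0.054 (Psme2) for WT against normal microglia, -0.092 to 0.12 (Psmb9) and -0.14 to 0.017 (Psmb10) for KO against normal microglia, -0.40 to 0.0084 (Psme2) for KO transplant against KO microglia, and -0.035 to 0.25 (Psme1) and -0.21 to 0.20 (Psme2) for WT transplant against KO microglia. No paired analysis was possible because outside the normal group every column carries the same replicate number. The causes were not tested.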
